A study of Arabidopsis thaliana with 30 samples.

Results

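The mock leaves of replicate 3 differed from those of replicates 1 and 2 in many genes. Of the gene lists described here that of copper uptake and economy lay farthest apart. Several members of that list could be fitted only because of their counts in replicate 3. The leaves are detached first leaves (numbers 1 and 2) of 10 d old seedlings of Arabidopsis thaliana, ecotype Columbia-0, grown on soil at 21 °C under continuous light of 75 µE m-2 s-1. Mock leaves had been surface-sterilised in 10% bleach and shaken in a buffer of Murashige and Skoog salts, 5% glucose and 0.2% DMSO for 6, 7, 8, 9 or 10 h. The stimulus leaves of the same series were also given bikinin, an inhibitor of GSK3 kinases, at 20 µM, the synthetic auxin 2,4-D at 2.5 µg/mL and kinetin, a cytokinin, at 0.5 µg/mL. Each sample pooled about 18 to 20 leaves, and each treatment and time had 3 biological replicates. Members were taken by the replicate number of the mock samples: 5 columns of replicate 3 against 10 columns of replicates 1 and 2. The replicate 3 columns at 6 h and 7 h were identical, so there were 4 distinct libraries of replicate 3 and 14 mock libraries, out of 29 distinct libraries in the series. The sets were chosen by the mock libraries' own gene levels, in which replicate 3 was known to stand apart, so every difference between the mock sets is given as a description with no test.

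Tests were made on the stimulus leaves, whose 5 replicate 3 libraries and 10 libraries of replicates 1 and 2 are not among the members, and between replicates 1 and 2 of the mock. The labels name no batch, plant lot or preparation, so whether mock and stimulus leaves of the same number came from the same plants is not given, and plants, harvest and preparation of replicate 3 cannot be told apart. The p-values take the 5 times of a replicate number as separate libraries. Because whole leaves were extracted, fewer cells of a type and less RNA per cell cannot be told apart either.

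Copper is the cofactor of plastocyanin, of Cu/Zn superoxide dismutases and of laccases. In plants short of copper, the transcription factor SPL7 binds the core sequence GTAC in the promoters of transporters, of the iron superoxide dismutase FSD1 and of a set of microRNA genes. These microRNAs, miR398, miR408, miR397 and miR857, cut the messages of copper proteins that can be spared, which leaves the metal for plastocyanin. Iron deficiency is answered by a separate set of genes under the Ib group of bHLH transcription factors. Cytokinin induces the type-A response regulators, which damp its own signal.

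The microRNAs that link the precursor loci to the copper proteins are given here from RefSeq (TAIR10.1), 5′ to 3′, with the seed (bases 2 to 8) in capitals.
ath-miR398b-3p: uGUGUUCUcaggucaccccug
ath-miR408-3p: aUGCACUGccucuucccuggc
ath-miR397a: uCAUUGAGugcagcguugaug
ath-miR857: uUUUGUAUguugaagguguau
The mature ath-miR398c-3p has the same letters as ath-miR398b-3p, so these 2 loci share a seed and a product, and reads from like stretches of their precursors may be split between them. The libraries count the precursor loci and do not separate the arms of a hairpin.

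The best-matching stretches in the messages of 5 copper proteins are shown because their levels are compared with those of the microRNA loci. Capitals mark bases that form Watson-Crick pairs with ath-miR398b-3p in CSD1, CSD2 and CCS, with ath-miR408-3p in ARPN and with ath-miR397a in IRX12.
CSD1: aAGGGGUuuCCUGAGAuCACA
CSD2: ugcGGGUGACCUGgGAAacau
CCS: auuGGGaGACCUGgGAACACu
ARPN: cCaAGGGAAGAGGCAGUGCAU
IRX12: agUCAACGCUGCACUuAAUGA
Of the 21 positions, 17 pair in CSD1, 13 in CSD2, 15 in CCS, 19 in ARPN and 18 in IRX12, G-U pairs not counted. A match of this kind is a description of letters and was not read as a cleavage site.

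The mock sets differed at many genes. A gene was counted as higher or lower in replicate 3 where the fitted difference was at least 2-fold and the library-scaled counts (CPM) of the 4 replicate 3 libraries did not overlap those of the 10 others. CPM are not scaled by gene length, so levels are compared between libraries and not between genes. By this rule 1109 of the 20370 genes that passed the filter on low counts, 5.44%, were higher and 1155, 5.67%, were lower, and the median log2 difference over all genes was -0.01. Without the 2-fold limit, the values did not overlap for 19.9% of genes on the higher side and 16.8% on the lower. Replicates 1 and 2 of the mock were far closer to each other. Between them edgeR's quasi-likelihood test called 0 of 20498 genes, with 737 at an unadjusted p under 0.05 and 7 calls by DESeq2. By the rule used for replicate 3, at least 2-fold without overlap, 2 genes (0.00976%) were higher in replicate 1 and 0 lower. The SD of the log2 difference over genes was 0.820 between the mock sets and 0.199 between replicates 1 and 2.

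In the stimulus leaves the same division gave 6992 genes higher in replicate 3, 34.2% of 20442 tested, and 7294 lower, 35.7% (edgeR's quasi-likelihood test, adjusted p under 0.05). Of the 1109 genes higher in the mock, 1085 were tested in the stimulus, and 761 of these, 70.1%, were higher there too, which is 10.9% of the stimulus calls. Of the 1155 lower in the mock, 1111 were tested and 856, 77.0%, were lower, 11.7% of the stimulus calls. The opposite call was made for 117 and 75 genes. By the mock rule, at least 2-fold without overlap, 6.02% of stimulus genes were higher and 7.2% lower. The 2 contrasts share no library. Counts by the mock rule and by the stimulus test are not comparable with each other, and each is to be read against its own share of all genes. Whether a gene's difference was larger in one treatment than in the other was not tested.

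The libraries of replicate 3 also differed in make-up. They held 14981271 to 19074614 counts in the mock against 18135710 to 21690622 in the others. Plastid loci took 0.603 ± 0.0388% (SD, n = 4) of counts in mock replicate 3 and 2.58 ± 0.360% (SD, n = 10) in replicates 1 and 2, and nuclear rRNA and tRNA loci 0.0479 ± 0.0154% and 0.567 ± 0.191%. The shares did not overlap between the sets, whereas mitochondrial loci took 35.6 ± 0.927% and 35.2 ± 2.02%. Gene length moved with the difference as well, among protein-coding genes in 5 length classes. In the shortest, of 93 to 1618 bases, 10.6% of genes were higher in replicate 3 and 6.44% lower, with a median log2 difference of 0.13. In the longest, of 3676 to 27265 bases, 2.16% were higher and 5.09% lower, with a median of -0.15. The part of RNA make-up and length in the gene differences below was not tested. With organelle, rRNA and tRNA loci removed before scaling, 1050 genes were higher and 1184 lower.

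**Figure D1:**
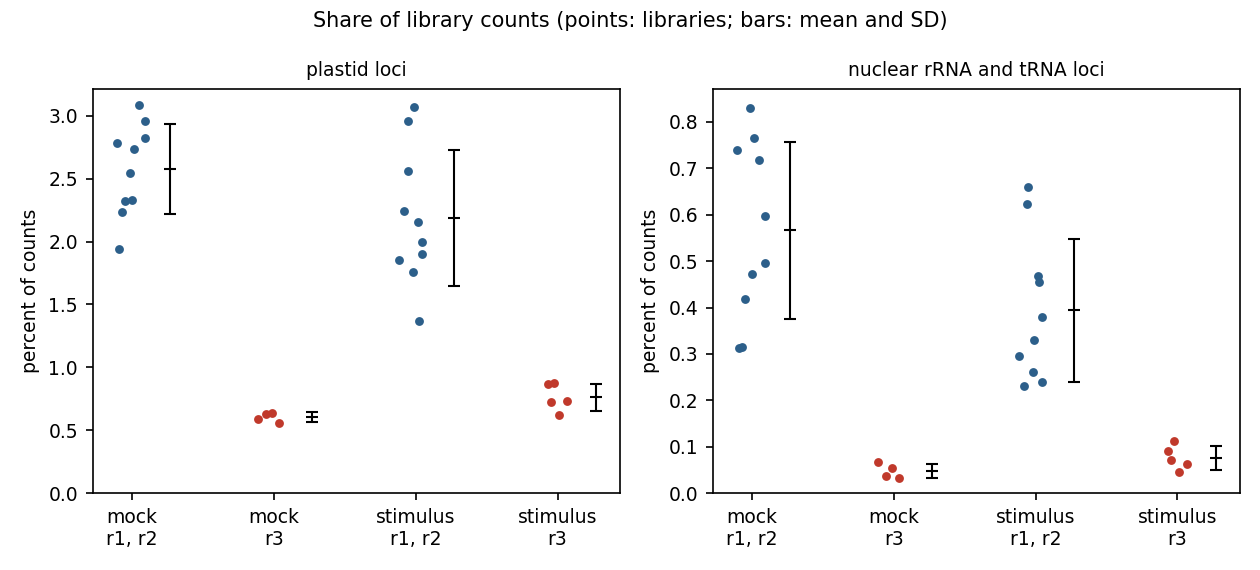
Share of each library's counts on plastid loci (left, percent) and on nuclear rRNA and tRNA loci (right, percent), in mock and stimulus leaves, with a point per library and the mean and SD as bars. In both treatments every replicate 3 library (r3) lies below every library of replicates 1 and 2 (r1, r2).

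Genes of copper uptake and economy formed the most distant group. Of 16 in the list 12 passed the filter, several of them only through their counts in replicate 3, and 11 were higher in replicate 3 and 0 lower, against 5.44% and 5.67% of all genes. Their median log2 difference was 5.78, and it was the same with genes at 0 set at their bound. Over the alternatives tried the count ran from 7 to 13. In the stimulus leaves 11 of the 11 tested were higher in replicate 3, with a median of 6.03, where 34.2% of all genes were called higher. Both tallies are largely set by the filter. MIR398b, MIR398c and MIR408 had next to no counts outside replicate 3 and could enter only if high there. In the mock the same held for MIR857, ZIP2, AT1G71200 and COPT2, also at or near 0 outside replicate 3. FSD1 was low there too, so the tallies and medians of this list lean on members of this kind. FSD1 (AT4G25100), the iron superoxide dismutase that stands in for the copper enzymes, was at 120.0, 107, 169 and 117 CPM in the replicate 3 libraries, given here and below in the order 6 h (the column shared with 7 h), 8, 9 and 10 h. In the other 10 libraries it lay between 0.0506 and 1.32 CPM, with a median of 0.255. Each replicate 3 library was far above all the others, and the log2 difference was 8.56 ± 0.27 (SE), or 9.20 without replicate 1 at 8 h and 9.21 without replicate 3 at 8 h. In stimulus leaves FSD1 averaged 122 ± 22.2 CPM (SD, n = 5) in replicate 3 and 0.142 ± 0.0948 (SD, n = 10) in the others, a log2 difference of 9.66 ± 0.13 (edgeR adjusted p = 8.35e-16).

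The microRNA precursor loci were close to silent in replicates 1 and 2. MIR398b (AT5G14545) stood at 11.8, 8.46, 12.8 and 8.08 CPM in replicate 3, 659 counts in all, against 3 counts over the 10 other libraries. The ratio of depth-scaled counts was 681, with a 95% counting interval of 232 to 3313. MIR398c (AT5G14565) was at 6.35, 6.74, 7.95 and 6.57 CPM with 447 counts against 2, a ratio of 693 (191 to 5743). MIR408 (AT2G47015) was at 7.52, 4.23, 7.30 and 7.33 CPM with 425 counts against 3, a ratio of 439 (149 to 2139). The 3 loci had counts in every replicate 3 library and in at most a few of the others. Their fitted log2 differences moved with single libraries: that of MIR398b (8.93) was 9.80 without replicate 1 at 8 h, 9.76 without replicate 3 at 8 h and 8.29 without the replicate 3 column of 6 h. That of MIR398c (8.71) was 10.02 without replicate 1 at 7 h and 10.10 without the replicate 3 column of 6 h, and that of MIR408 (8.32) was 9.12 without replicate 1 at 6 h. MIR857 (AT4G13554) had 81 counts in replicate 3, at 1.11, 1.5, 1.37 and 0.988 CPM, and 0 in the others, so it was at least 83.8-fold higher by a floor of 3 counts over the group. MIR397a (AT4G05105), with 32 counts against 0, was under the filter on low counts and at least 33.1-fold higher. MIR398a (AT2G03445) was also under that filter, and its mean was 0.126 CPM in replicate 3 and 0.0962 CPM in the others. In stimulus leaves MIR398b averaged 4.04 ± 0.520 CPM (SD, n = 5) in replicate 3 and 0.0128 ± 0.0406 (SD, n = 10) in the others (edgeR adjusted p = 6.73e-10), and MIR408 4.97 ± 0.851 and 0.0183 ± 0.0423 CPM (edgeR adjusted p = 2.34e-10). MIR398c averaged 3.19 ± 0.242 CPM in stimulus replicate 3, and no count was found in the 10 other stimulus libraries (edgeR adjusted p = 6.62e-06). Intervals and floors here cover counting error only.

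Copper and metal transporters followed. COPT2, a high-affinity copper transporter of the plasma membrane, was at 2.96, 2.23, 3.68 and 4.42 CPM in replicate 3 and at 0 to 0.219, median 0.0499, in the others. ZIP2, a divalent metal transporter, was at 1.17, 0.779, 2.17 and 2.09 CPM in replicate 3, while the others ran from 0 to 0.244 with a median of 0. Neither gene overlapped between the sets, with log2 differences of 5.43 ± 0.37 and 5.30 ± 0.62 (SE). That of ZIP2 became 7.01 without replicate 1 at 8 h and 7.03 without replicate 3 at 8 h. YSL2, of a family that carries metals bound to nicotianamine, stood at 67.0, 45.2, 55.2 and 69.5 CPM in replicate 3 and between 0.825 and 4.2 CPM, median 3.12, in the others. Its log2 difference was 4.52 ± 0.22 in the mock and 5.56 ± 0.20 in the stimulus (edgeR adjusted p = 3.11e-11). COPT6, another copper transporter, showed a smaller gap, 11.5, 12.9, 16.4 and 15.4 CPM against 3.04 to 5.92, median 5.04, a log2 difference of 1.49 ± 0.14. COPT1 did not reach 2-fold, at 19.2, 18.7, 21.6 and 20.2 CPM against 10.4 to 14.7, median 12.4, though its sets did not overlap. In the mock COPT2 and ZIP2 could enter only if high in replicate 3, being at or near 0 elsewhere. In the stimulus leaves all 5 transporters were higher in replicate 3, against 34.2% of all genes tested. The log2 differences there were 5.91 ± 0.35 for COPT2, 7.39 ± 0.38 for ZIP2, 1.98 ± 0.10 for COPT6 and 1.03 ± 0.08 for COPT1 beside that of YSL2 (edgeR adjusted p from 3.11e-11 for YSL2 to 2.06e-08 for COPT1). That of ZIP2 was 8.19 without replicate 1 at 10 h and 8.15 without replicate 3 at 10 h, and that of COPT2 6.55 without replicate 3 at 8 h.

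CCH, a copper chaperone of the cytosol, was at 70.1, 57.7, 71.7 and 74.4 CPM in replicate 3 and at 5.44 to 10.8, median 7.72, in the others. The lowest replicate 3 library was above the highest of the others, and the log2 difference was 3.09 ± 0.12 in the mock and 3.28 ± 0.09 in the stimulus (edgeR adjusted p = 2.09e-12). AT1G71200, annotated as a bHLH DNA-binding protein, was at 1.54, 1.73, 1.95 and 2.09 CPM in replicate 3 and between 0 and 0.157, median 0, in the others, with a log2 difference of 6.12 ± 0.52 in the mock and 6.03 ± 0.43 in the stimulus (edgeR adjusted p = 1.4e-08). Its mock value was 7.23 without replicate 1 at 6 h and 7.04 without the replicate 3 column of 6 h, and its stimulus value 6.63 without replicate 2 at 8 h. The reductases FRO4 and FRO5 were under the filter on low counts. FRO5 had 16 counts in replicate 3 and 1 in the others, a depth-scaled ratio of 49.6 (95% counting interval 7.71 to 2081).

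**Figure D2:**
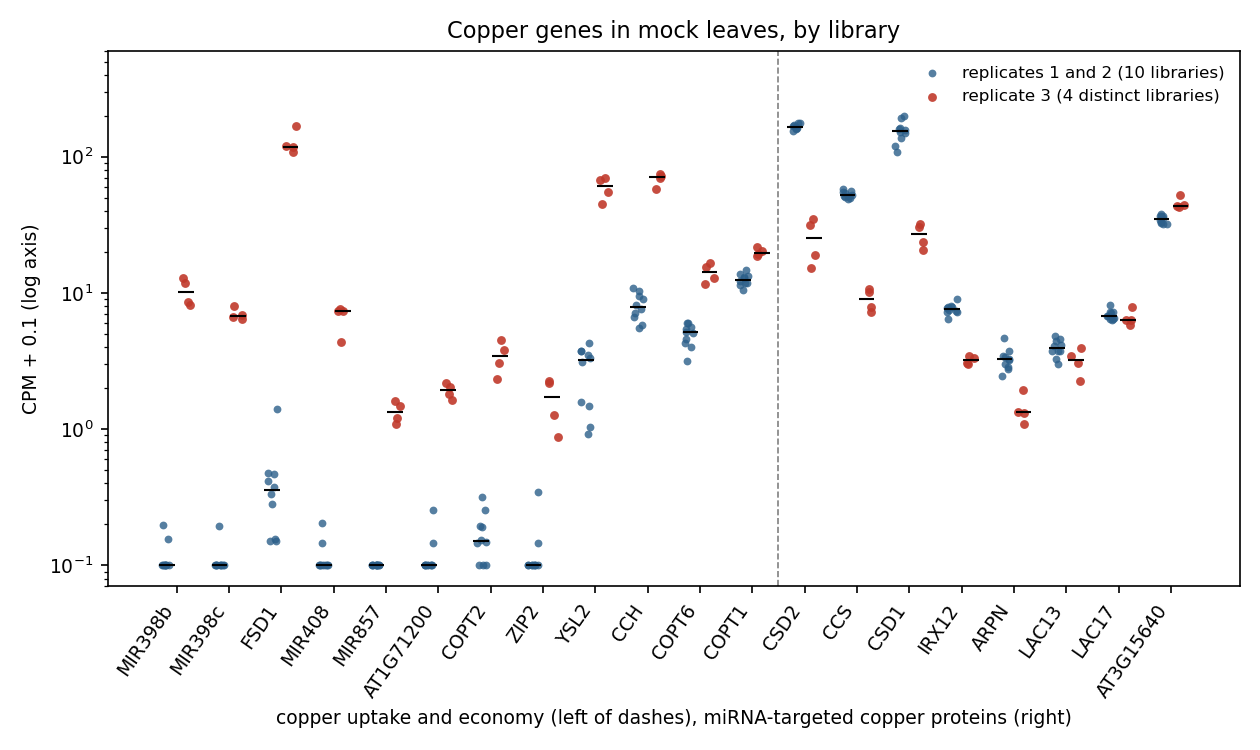
Level of each copper gene in each mock library (CPM + 0.1, log axis), for replicates 1 and 2 (blue, 10 libraries) and replicate 3 (red, 4 distinct libraries), with the median of each set as a bar. Genes of copper uptake and economy, left of the dashed line, lie higher in replicate 3, and CSD2, CCS, CSD1, IRX12 and ARPN, right of it, lie lower.

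Copper proteins that microRNAs of this set are known to target lay on the other side. Of 12 in the list 8 passed the filter. In replicate 3, 0 were higher and 5 lower, against 5.44% and 5.67% of all genes, with a median log2 difference of -1.25. CSD1 (AT1G08830), the cytosolic Cu/Zn superoxide dismutase, was at 32.0, 30.2, 23.7 and 20.5 CPM in replicate 3 and at 109 to 199, median 154, in the others. CSD2 (AT2G28190), the plastid enzyme, was at 31.6, 34.5, 18.9 and 15.2 CPM and 156 to 177, median 164. CCS (AT1G12520), the chaperone that loads both with copper, was at 10.5, 10.13, 7.73 and 7.09 CPM and 49.2 to 57.5, median 51.9. All replicate 3 libraries were below all others for the 3 genes, and within replicate 3 the 9 and 10 h libraries were below those at 6 and 8 h. The log2 differences were -2.53 ± 0.16, -2.75 ± 0.16 and -2.56 ± 0.09 (SE). In stimulus leaves they were -1.26 ± 0.19 for CSD1 (edgeR adjusted p = 3.72e-05), -2.33 ± 0.15 for CSD2 (edgeR adjusted p = 7.06e-09) and -2.12 ± 0.15 for CCS (edgeR adjusted p = 1.21e-08).

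ARPN, plantacyanin, a small blue copper protein whose message holds the miR408 match shown above, was at 1.85, 1.22, 1.23 and 0.988 CPM in replicate 3 and 2.36 to 4.56, median 3.16, in the others. IRX12, the laccase LAC4 of lignin formation with the miR397a match, was at 2.90, 3.34, 2.96 and 3.26 CPM against 6.39 to 8.95, median 7.52. Neither overlapped between the sets, and the log2 differences were -1.23 ± 0.17 and -1.27 ± 0.11 in the mock and -0.74 ± 0.16 (edgeR adjusted p = 0.000699) and -1.18 ± 0.16 (edgeR adjusted p = 9.28e-06) in the stimulus. LAC2, under the filter on low counts, had 0 counts in replicate 3 and 61 in the others. The list did not move as a block. LAC13 and LAC17 overlapped between the sets, at log2 differences of -0.33 ± 0.16 and -0.08 ± 0.09. AT3G15640, annotated as a Rubredoxin-like superfamily protein, was slightly higher in replicate 3, at 43.2, 51.9, 42.8 and 44.0 CPM against 32.0 to 37.7, without overlap and under 2-fold, and in stimulus leaves its log2 difference was 0.13 ± 0.06 (edgeR adjusted p = 0.0836).

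Among 13 other copper genes that passed the filter, 3 were higher and 0 lower in the mock, against 5.44% and 5.67% of all genes. DRT112, the main plastocyanin, which carries electrons to photosystem I, was at 1144, 1197, 1282 and 1089.7 CPM in replicate 3 and 242 to 529, median 368, in the others. PETE1, the second plastocyanin, was at 77.2, 95.4, 101 and 99.9 CPM against 27.2 to 60.03, median 36.8. Both lay wholly above the others, by 1.81 ± 0.11 and 1.38 ± 0.15 on the log2 scale. In the stimulus DRT112 was 0.60 ± 0.08 higher (edgeR adjusted p = 1.51e-05), while PETE1 was at 0.06 ± 0.12 (edgeR adjusted p = 0.673). ATX1, a copper chaperone, was at 62.1, 51.6, 56.3 and 56.5 CPM against 17.2 to 36.5, median 25.9, with a log2 difference of 1.1 ± 0.11 in the mock and 1.12 ± 0.09 in the stimulus (edgeR adjusted p = 3.16e-08). The message of the regulator SPL7 itself went the other way, at 38.7, 29.6, 30.3 and 31.6 CPM in replicate 3 and 45.0 to 56.6 in the others, without overlap and under 2-fold. Its log2 difference in stimulus leaves was -0.38 ± 0.06 (edgeR adjusted p = 0.000106). The thylakoid copper pump PAA2 (log2 difference 0.73 ± 0.14), the envelope pump PAA1 (-0.18 ± 0.07) and the peroxisomal dismutase CSD3 (-0.12 ± 0.09) overlapped between the mock sets.

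The windows upstream of these loci were searched for GTAC, which reads the same on both strands, from 250 bases before to 50 after each annotated start (RefSeq, TAIR10.1). Among all 27443 protein-coding genes 39.0% of windows held at least 1 GTAC, 9.76% at least 2 and 1.99% at least 3. Among all 327 microRNA precursors the shares were 37.9%, 11.6% and 3.06%. MIR398b held 5, MIR408, ZIP2 and CCH 4 each, and MIR398c, MIR397a and YSL2 3 each. FSD1 and COPT2 held 1, and AT1G71200, COPT1, COPT6, FRO4, FRO5, MIR398a and MIR857 none. Of the 10 protein-coding members 5 held at least 1 and 3 at least 3. The stretches of MIR398b, MIR398c, MIR408 and YSL2 that hold their copies upstream of the start are shown for their repeated GTAC, in capitals, on the strand of the gene.
MIR398b: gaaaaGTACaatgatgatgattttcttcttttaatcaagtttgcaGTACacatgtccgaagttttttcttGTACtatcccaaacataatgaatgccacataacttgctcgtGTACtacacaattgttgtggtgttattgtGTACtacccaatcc
MIR398c: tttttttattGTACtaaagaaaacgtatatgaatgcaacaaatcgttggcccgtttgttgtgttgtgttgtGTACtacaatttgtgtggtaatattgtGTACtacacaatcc
MIR408: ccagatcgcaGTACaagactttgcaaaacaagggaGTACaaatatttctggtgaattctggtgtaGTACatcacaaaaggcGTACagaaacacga
YSL2: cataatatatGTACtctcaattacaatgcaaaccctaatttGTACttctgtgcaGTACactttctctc
For microRNA loci the window lies before the annotated precursor, which need not be where transcription starts. The letters say nothing of whether SPL7 was bound, and a window without GTAC may have copies farther away.

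Some genes of iron deficiency were lower in mock replicate 3, and most were in the stimulus. Of 25 genes induced by iron deficiency 21 passed the filter, and in the mock 5 were lower and 0 higher, against 5.67% and 5.44% of all genes. The other 16 were neither, 8 of the 21 had a positive difference, and the median was -0.47. In the stimulus 17 of 22 tested were lower and 3 higher, against 35.7% and 34.2% of all genes, with a median of -1.36. bHLH38, of the Ib group of regulators, was at 77.5, 57.1, 62.3 and 104 CPM in replicate 3 and 140.3 to 265, median 175, in the others. Its partner genes bHLH39, at 45.7, 46.2, 38.4 and 58.3 CPM against 92.7 to 136, and BHLH101, at 12.9, 12.8, 10.7 and 15.5 CPM against 23.2 to 32.1, also lay wholly below. BHLH100, the fourth of the group, was at 237, 262, 239 and 271 CPM against 279 to 411, without overlap and under 2-fold.

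The log2 differences of bHLH38, bHLH39, BHLH101 and BHLH100 were -1.38, -1.24, -1.06 and -0.47 in the mock. In the stimulus they were -3.39, -3.35, -4.10 and -5.79 (edgeR adjusted p = 7.66e-09, 1.4e-08, 1.28e-10 and 1.73e-10). BTS, a ubiquitin ligase that restrains the iron response, was at 822, 812, 748 and 896 CPM in replicate 3 and 1369 to 1851, median 1628, in the others. AT1G74770, annotated as a zinc ion binding protein, was at 1.48, 1.5, 0.939 and 1.69 CPM against 7.33 to 10.2, the widest gap of the list, -2.65 ± 0.15 on the log2 scale and -2.36 ± 0.14 in the stimulus (edgeR adjusted p = 2.9e-09). AT1G47395, entered in the list as IMA2 though uncharacterised in the annotation used here, was the fifth lower gene (-1.05 ± 0.12). IRT1, the root iron transporter, had no count in any mock library. The 5 upstream regulators of the IVc and IVb groups of bHLH proteins (bHLH34, bHLH104, ILR3, bHLH115 and bHLH121) were neither higher nor lower by the rule, which 5.44% and 5.67% of all genes met.

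Of 11 genes linked to iron storage and supply 8 passed the filter, and 5 were higher and 0 lower in the mock, against 5.44% and 5.67% of all genes. In the stimulus 6 of 7 tested were higher and 1 lower, against 34.2% and 35.7%. NAS3 could enter the mock tally only if high in replicate 3, since it had next to no counts elsewhere. FER1, a plastid ferritin that stores iron, was at 7.21, 8.35, 8.96 and 4.65 CPM in replicate 3 and 0.630 to 2.32, median 1.53, in the others, a log2 difference of 2.38 ± 0.20 in the mock and 2.49 ± 0.19 in the stimulus (edgeR adjusted p = 3.97e-08). FER3 was at 33.4, 41.1, 37.0 and 29.9 CPM against 6.93 to 20.3, and differed by 1.54 ± 0.13 in the mock and 0.39 ± 0.09 in the stimulus (edgeR adjusted p = 0.00122). FER4 differed by 1.33 ± 0.18, but it overlaps a more strongly counted gene on its strand, so its counts are uncertain. NAS3, which makes the chelator nicotianamine, had 110 counts in replicate 3 and 2 in the others, a depth-scaled ratio of 171 (95% counting interval 46.1 to 1426). Its fitted log2 difference of 6.84 was 8.26 without replicate 1 at 8 h, 8.34 without replicate 3 at 8 h and 5.85 without the replicate 3 column of 6 h. YSL3, a transporter of metals bound to nicotianamine, was at 31.4, 26.7, 37.1 and 42.4 CPM against 9.73 to 15.7, median 12.7, and differed by 1.41 ± 0.09 in the mock and 3.87 ± 0.11 in the stimulus (edgeR adjusted p = 3.48e-12).

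**Figure D3:**
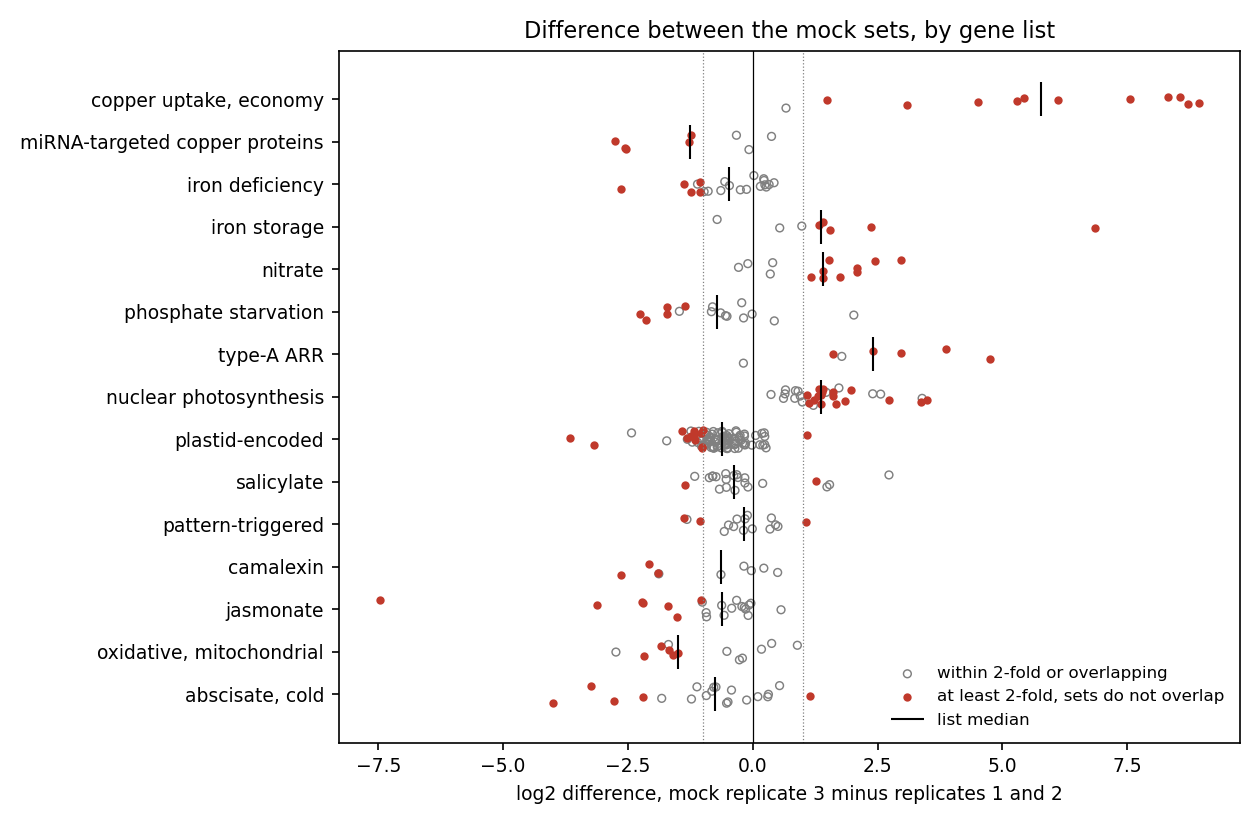
Log2 difference of each tested gene between the mock sets (replicate 3 minus replicates 1 and 2, horizontal axis), by gene list, with the list median as a bar. Filled points are genes at least 2-fold apart whose sets did not overlap, and dotted lines mark 2-fold. The copper uptake list stands farthest to the right with a median of 5.78. Several members of that list passed the filter only through replicate 3.

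Several cytokinin response genes were higher in replicate 3, in a buffer without added cytokinin. Of 10 type-A response regulators 7 passed the filter, and 5 were higher and 0 lower, against 5.44% and 5.67% of all genes, with a median log2 difference of 2.42. ARR6, at or near 0 outside replicate 3, could enter this tally only if high there. ARR4 was at 15.6, 48.8, 17.9 and 12.4 CPM in replicate 3 and 0.578 to 2.52, median 1.73, in the others. ARR7 was at 9.12, 30.9, 8.24 and 4.36 CPM against 1.01 to 1.96, and ARR9 at 9.74, 13.8, 10.3 and 9.36 CPM against 1.37 to 2.96. ARR6 was at 0.739, 6.40, 1.44 and 0.465 CPM against 0 to 0.236, and ARR16 (RR16) at 5.85, 13.5, 6.65 and 5.06 CPM against 1.63 to 3.40. No replicate 3 value of these 5 genes fell within the range of the others. The 8 h library of replicate 3 was the highest for each of them, and for ARR4 it held about as much as the other replicate 3 libraries together.

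Without the 8 h library of replicate 3 the log2 differences became 3.49 from 3.86 for ARR4, 2.39 from 2.97 for ARR7, 2.15 from 2.42 for ARR9, 3.72 from 4.74 for ARR6 (6.98 without the column of 6 h) and 1.32 from 1.60 for ARR16. ARR15 was at 0.739, 4.06, 0.578 and 1.28 CPM against 0.219 to 0.732 and overlapped. ARR5 (RR5), under the filter, had 78 counts in replicate 3, most in the 8 h library at 3.45 CPM, and 44 in the others. ARR8 (RR3) did not follow, at 5006, 5729, 5782 and 5822 CPM against 4769 to 7774, within their range. In stimulus leaves, which received kinetin, 5 of 8 tested were higher in replicate 3 and 1 lower, against 34.2% and 35.7% of all genes, with a median of 0.44. ARR4 averaged 86.6 ± 4.15 CPM (SD, n = 5) in replicate 3 and 54.8 ± 6.94 (SD, n = 10) in the others (log2 difference 0.67, edgeR adjusted p = 5.35e-07). The difference of ARR7 there was 0.14 ± 0.07 (edgeR adjusted p = 0.0678), of ARR9 0.21 ± 0.07 (edgeR adjusted p = 0.00954) and of ARR16 2.42 ± 0.13 (edgeR adjusted p = 1.08e-09). ARR9 did not keep its call with counts summed over times (log2 difference 0.24), and ARR7 and ARR8 gained a call under some alternatives. The mock levels of ARR4, ARR6, ARR7 and ARR9 in replicate 3 stayed under the means of the stimulus leaves of replicates 1 and 2, 54.8 ± 6.94, 7.75 ± 1.04, 60.8 ± 7.41 and 24.6 ± 2.41 CPM. Mock and stimulus CPM were scaled separately, so this comparison is approximate, and ARR16 was not compared in this way.

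**Figure D4:**
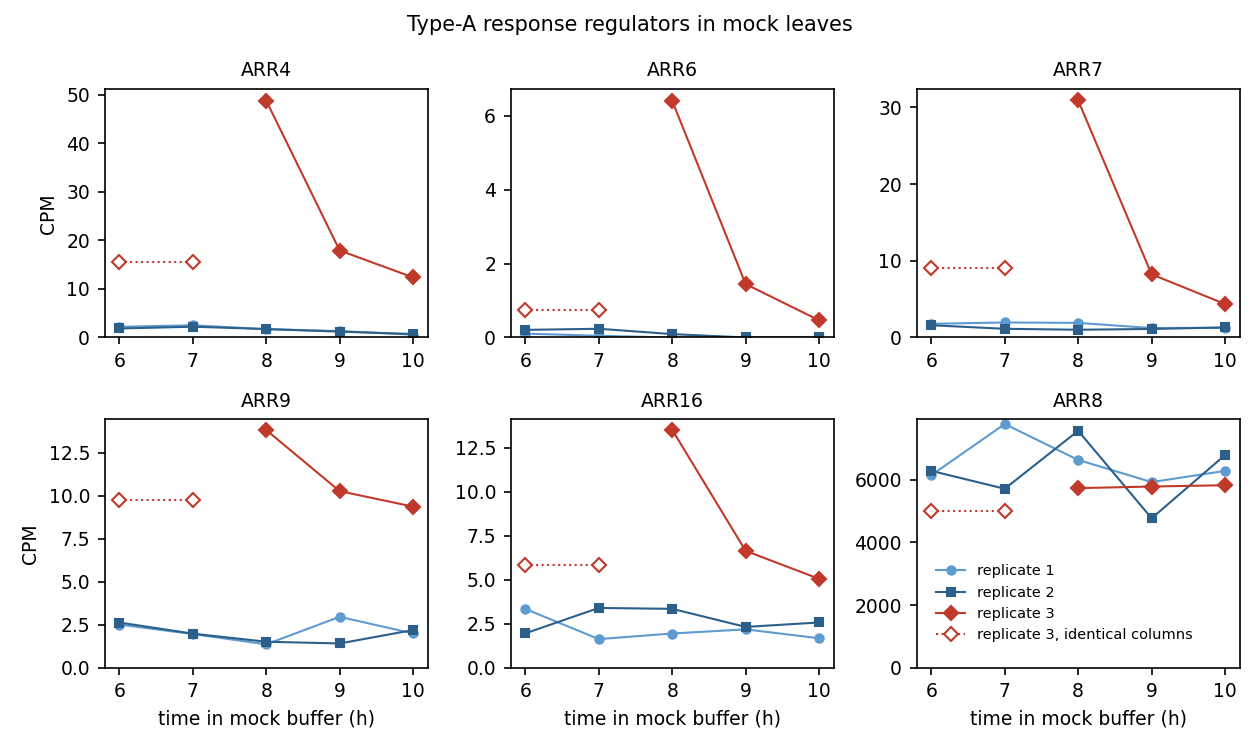
CPM of 6 type-A response regulators in mock leaves against time in buffer (h), with replicates 1 and 2 in blue and replicate 3 in red; open symbols mark the 6 h and 7 h columns of replicate 3 that hold identical counts. The 8 h library of replicate 3 is the highest for ARR4, ARR6, ARR7, ARR9 and ARR16, and ARR8 lies within the range of the others.

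Genes that make, sense and remove cytokinin were mixed. Of 18 genes of cytokinin metabolism 10 passed the filter in the mock, and 2 were higher, 2 lower and 6 neither, with a median log2 difference of 0.19. Of 7 genes of perception and response 5 passed, and 1 was higher, 0 lower and 4 neither. Of all genes 5.44% were higher and 5.67% lower. In the stimulus 3 of 12 metabolism genes were higher and 8 lower, against 34.2% and 35.7% of all genes. IPT3, an isopentenyltransferase that starts cytokinin synthesis and is known to respond to nitrate, was at 5.48, 5.96, 6.29 and 4.13 CPM in replicate 3 and 0 to 1.17, median 0.302, in the others, and differed by 3.71 ± 0.41 in the mock and 3.30 ± 0.37 in the stimulus (edgeR adjusted p = 1.72e-06). WOL, the receptor kinase AHK4, was at 17.62, 43.3, 16.3 and 10.7 CPM against 3.74 to 8.74, again highest at 8 h, and UGT76C2, a cytokinin glucosyltransferase, at 4.62, 12.2, 5.42 and 4.24 CPM against 1.26 to 4.19. The other receptors lay slightly lower, with AHK2 (HK2) at -0.22 ± 0.11 and AHK3 (HK3) at -0.36 ± 0.06 on the log2 scale. CKX5, a cytokinin oxidase, and LOG3, which frees the active base, were lower by the rule (log2 differences -1.86 ± 0.33 and -2.40 ± 0.30). They were lower in stimulus leaves as well, at -3.83 ± 0.34 (edgeR adjusted p = 1.24e-07) and -1.46 ± 0.08 (edgeR adjusted p = 1.32e-09).

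Salicylate genes met the mock rule about as often as genes at large. Of 26 salicylate genes 22 passed the filter in the mock, and 1 was higher and 1 lower, against 5.44% and 5.67% of all genes, with a median log2 difference of -0.37. In stimulus leaves 20 of 24 were higher in replicate 3 and 0 lower, with a median of 1.59, against 34.2% and 35.7% of all genes. EDS16, the isochorismate synthase that makes salicylate, was the higher gene, at 11.1, 11.6, 13.1 and 10.9 CPM in replicate 3 and 3.21 to 7.34 in the mock (1.26 ± 0.15), and in the stimulus it averaged 126 ± 40.2 CPM (SD, n = 5) against 11.9 ± 4.55 (SD, n = 10), a difference of 3.43 ± 0.20 (edgeR adjusted p = 2.27e-09). CBP60G, a regulator of that gene, was the lower one, at 4.13, 6.74, 5.13 and 6.74 CPM against 7.06 to 24.4 in the mock (-1.36 ± 0.23), but 0.59 ± 0.21 in the stimulus (edgeR adjusted p = 0.0222). PR1, the marker of salicylate defence, was uneven in the mock, at 0.123, 8.46, 4.05 and 21.9 CPM in replicate 3 and 0 to 4.1, median 0.156, in the others, with overlap. In stimulus leaves PR1 averaged 36.0 ± 25.0 CPM in replicate 3 and 0.781 ± 1.38 in the others (5.40 ± 0.66, edgeR adjusted p = 3.7e-06), with 6.67 and 6.70 when replicate 2 or 3 at 8 h was left out.

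Genes of pattern-triggered immunity gave 1 higher and 2 lower of 16 in the mock, against 5.44% and 5.67% of all genes. In the stimulus 13 of 17 were higher and 2 lower, against 34.2% and 35.7%. FLS2, the flagellin receptor, was at 32.7, 43.7, 45.6 and 43.7 CPM in replicate 3 and 16.4 to 24.8, without overlap, and differed by 1.06 ± 0.11 in the mock and 1.03 ± 0.08 in the stimulus (edgeR adjusted p = 6.95e-08). WRKY33, a transcription factor of defence, was lower in the mock, at 19.8, 18.3, 21.6 and 26.5 CPM against 31.2 to 99.4 (-1.38 ± 0.25), and higher in the stimulus (0.57 ± 0.11, edgeR adjusted p = 0.000308). RBOHD, the NADPH oxidase of the oxidative burst, was lower in both, at -1.07 ± 0.12 and -0.66 ± 0.07 (edgeR adjusted p = 7.2e-07). Of 9 genes around camalexin, an indole phytoalexin, 3 were lower and 0 higher in the mock, against 5.67% and 5.44% of all genes. Their median was -0.64. In the stimulus 7 were higher and 1 lower, against 34.2% and 35.7%, with a median of 1.05. CYP79B2 and CYP79B3, which open the path from tryptophan, were at 36.8, 17.0, 23.4 and 46.6 CPM against 66.9 to 153 and at 13.5, 8.02, 9.32 and 13.1 CPM against 40.5 to 107. PAD3, the last enzyme of the path, was at 2.83, 3.62, 3.25 and 3.37 CPM against 3.30 to 22.7, just overlapping, and in the stimulus was higher by 2.93 ± 0.42 (edgeR adjusted p = 1.79e-05), or by 2.26 without replicate 3 at 6 h.

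Jasmonate genes, which respond to wounding, were lower in 7 of the 21 that passed the filter in the mock and higher in 0, against 5.67% and 5.44% of all genes. MYC2, the central transcription factor, was at 35.6, 35.8, 32.4 and 36.6 CPM in replicate 3 and 65.1 to 164, median 128, in the others. It differed by -1.70 ± 0.21 in the mock and -0.74 ± 0.08 in the stimulus (edgeR adjusted p = 1.36e-06). THI2.1, a thionin induced by jasmonate, had 4 counts in replicate 3 and 2421 in the others, where it ran from 2.37 to 32.6 CPM. It passed the filter only through its counts in these others. Its fitted difference, -7.47 ± 0.86, ran from -8.18 to -6.60 as single replicate 3 libraries of 6, 9 and 10 h were left out. VSP1, a vegetative storage protein, was at 2.59, 0.946, 1.37 and 1.05 CPM against 2.94 to 44.5, with a log2 difference of -3.12 ± 0.59 that was -3.76 without the replicate 3 column of 6 h and -2.45 without that of 9 h. The others lower were AOC3, JAZ5, JAZ10 and ORA47, at -1.51, -2.21, -1.03 and -2.23 on the log2 scale. The list was not uniform, since LOX2, AOS and JAZ1 overlapped between the sets (-0.09, -0.32 and -0.14). In stimulus leaves 6 of 18 jasmonate genes were higher and 6 lower, close to the 34.2% and 35.7% of all genes. PDF1.2, a defensin of the branch shared with ethylene, lay on the other side, at 2.4, 2.12, 3.25 and 1.22 CPM against 0 to 0.439, median 0.0236, though near-identical copies may share its reads. With so few counts outside replicate 3, PDF1.2 could pass the filter only if high there. Of 7 genes of that branch 5 passed the filter, and 1 was higher and 0 lower, against 5.44% and 5.67% of all genes. Of these 5, 3 had a positive and 2 a negative difference.

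Genes of oxidative and mitochondrial stress were lower in 5 of 13 in the mock and higher in 0, against 5.67% and 5.44% of all genes. In the stimulus 10 of 12 were higher and 1 lower, against 34.2% and 35.7%. BAP1 was at 1.91, 1.67, 1.30 and 1.40 CPM in replicate 3 and 3.77 to 12.1 in the others, and BCS1, a mitochondrial ATPase, at 9.74, 7.74, 7.30 and 7.62 CPM against 14.3 to 47.3. In the stimulus BCS1, named after its values were seen, was higher in replicate 3 by 1.00 ± 0.18 (edgeR adjusted p = 0.000175). AOX1A, the alternative oxidase of mitochondria, overlapped in the mock (0.38 ± 0.12) and was higher in the stimulus by 1.14 ± 0.11 (edgeR adjusted p = 2.78e-07). Among 20 abscisate and cold genes 4 were lower and 1 higher in the mock, against 5.67% and 5.44% of all genes. NCED3, the enzyme that limits abscisate synthesis, was at 16.3, 6.57, 8.31 and 10.06 CPM against 48.9 to 91.9, median 66.3, and differed by -2.79 ± 0.23 in the mock and -2.22 ± 0.10 in the stimulus (edgeR adjusted p = 2.79e-10). HAI1 and HAI2, phosphatases induced by abscisate, were lower, at -3.24 ± 0.28 and -2.21 ± 0.26, and RAB18, a dehydrin, was the higher gene (1.14 ± 0.18).

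Most of the nitrate genes that could be compared were higher in replicate 3. Of 17 in the list 13 passed the filter, and 9 were higher and 0 lower, against 5.44% and 5.67% of all genes, with a median log2 difference of 1.40. In the stimulus 12 of 14 were higher and 2 lower, against 34.2% and 35.7%. The nitrate reductase NIA1 was at 204, 165, 217 and 289 CPM in replicate 3 and 10.4 to 98.8, median 35.5, in the others. NIA2, the second nitrate reductase, was at 847, 861, 1068 and 1185 CPM against 69.6 to 407, median 238. Both lay above all the others, and in the stimulus they differed by 1.90 ± 0.45 (edgeR adjusted p = 0.00168; 1.17 without replicate 3 at 6 h) and 2.65 ± 0.17 (edgeR adjusted p = 3.99e-09). LBD39, a regulator induced by nitrate, was at 9.37, 10.13, 13.0 and 9.88 CPM against 0.262 to 2.1. NRT2:1, a nitrate transporter, was at 6.72, 4.18, 4.19 and 6.45 CPM against 0.184 to 2.41, also clear of the others. NRT2.6, which is not in the list, belongs to a family of nitrate transporters and was among the genes with the largest differences. It stood at 73.1, 56.6, 70.2 and 54.9 CPM in replicate 3 and 0.367 to 1.70, median 1.01, in the others, and differed by 6.21 ± 0.14 in the mock and 7.40 ± 0.15 in the stimulus (edgeR adjusted p = 7.53e-14).

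Of 16 phosphate starvation genes that passed the filter 5 were lower and 0 higher in the mock, against 5.67% and 5.44% of all genes, and the differences of the list reached 2.02 on the higher side, for PHT1;1, whose sets overlapped. In the stimulus 14 of 15 were lower and 1 higher, against 35.7% and 34.2%. MGD2 and MGDC, which make galactolipids when phosphate is short, were at 6.96, 7.63, 4.84 and 5.47 CPM against 17.8 to 42.7 and at 2.28, 2.56, 2.17 and 2.38 CPM against 2.79 to 19.4. In stimulus leaves they differed by -2.84 ± 0.14 (edgeR adjusted p = 4.36e-10) and -2.96 ± 0.19 (edgeR adjusted p = 5.17e-09). Of 12 sulphur genes that passed the filter 1 was higher by the rule in the mock and 0 lower, against 5.44% and 5.67% of all genes. The higher gene was APR2, a reductase of sulphate assimilation, at 178, 183, 211 and 187 CPM against 41.3 to 81.9. In all, 11 of the 12 had a positive difference, with a median of 0.45, where 10018 of all 20370 genes had a positive difference. In the stimulus 11 of 12 were higher and 0 lower, against 34.2% and 35.7% of all genes. Of 9 genes of sugar starvation that passed the filter 5 were higher and 0 lower in the mock, against 5.44% and 5.67% of all genes. BT2, a BTB and TAZ domain protein repressed by sugar and induced by nitrate, was at 60.5, 77.8, 101 and 79.9 CPM against 2.41 to 17.64, median 6.64, and differed by 3.39 ± 0.24 in the mock and 2.70 ± 0.37 in the stimulus (edgeR adjusted p = 1.29e-05).

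About as many nuclear photosynthesis genes met the rule as did not. All 32 nuclear genes of light harvesting, photosystems and carbon fixation passed the filter, 17 were higher and 0 lower, against 5.44% and 5.67% of all genes, and all 32 had a positive difference, with a median of 1.37. In the stimulus 15 were higher, 2 lower and 15 neither, against 34.2% higher and 35.7% lower of all genes, with a median of 0.24. CAB2, a chlorophyll a/b binding protein, was at 1498, 1069, 1815 and 1844 CPM in replicate 3 and 52.0 to 770.2, median 165, in the others. LHCB2.1, of the same antenna, was at 295, 181, 362 and 374 CPM against 10.9 to 159, and PSAD-2, of photosystem I, at 156, 147, 171 and 145 CPM against 11.3 to 59.5. Members of these families are similar in sequence, so reads may be split among them. RBCS1A, a small subunit gene of Rubisco named as a mesophyll marker, did not reach 2-fold, at 10069.7, 9212, 10063 and 10364 CPM against 5242 to 7116, without overlap. The difference in the stimulus was 1.65 ± 0.34 for CAB2 (edgeR adjusted p = 0.000479), 1.85 ± 0.27 for LHCB2.1 (edgeR adjusted p = 2.71e-05) and 0.73 ± 0.13 for PSAD-2 (edgeR adjusted p = 0.000117).

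Of 134 plastid loci 98 passed the filter. In the mock 1 was higher, 12 lower and 85 neither, against 5.44% higher and 5.67% lower of all genes. The median log2 difference of these loci was -0.63. In the stimulus 76 of 103 were lower and 1 higher, against 35.7% and 34.2% of all genes. The lower plastid level lay mostly in a few loci. The 5 with the highest level in replicates 1 and 2 held 86.6% of plastid CPM there and 60.9% in replicate 3, and the remaining loci summed to 3356 CPM in replicates 1 and 2 and 2528 CPM in replicate 3. ATCG00120, which the annotation used here does not name, averaged 1476 ± 173 CPM (SD, n = 4) in replicate 3 and 13522 ± 2559 (SD, n = 10) in the others. ATCG00130 averaged 412 ± 28.1 and 5292 ± 1330 CPM. In stimulus leaves the 2 loci differed by -2.37 (edgeR adjusted p = 9.33e-08) and -2.66 (edgeR adjusted p = 2.37e-07). Nuclear genes for plastid transcription and RNA handling were higher in 5 of 18 and lower in 0 in the mock. This stands against 5.44% and 5.67% of all genes, and the median of these 18 was 0.63. In the stimulus 3 were higher and 10 lower, against 34.2% and 35.7%, with a median of -0.30. SIGA, a sigma factor of the plastid-encoded polymerase, was at 21.7, 20.3, 26.2 and 16.7 CPM against 3.19 to 8.36, and SCA3, the nuclear-encoded plastid polymerase, at 86.8, 104, 81.4 and 83.3 CPM against 21.2 to 57.4. SIGF, PTAC2 and FLN1 were the others, at 1.34, 1.18 and 1.37.

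**Figure D5:**
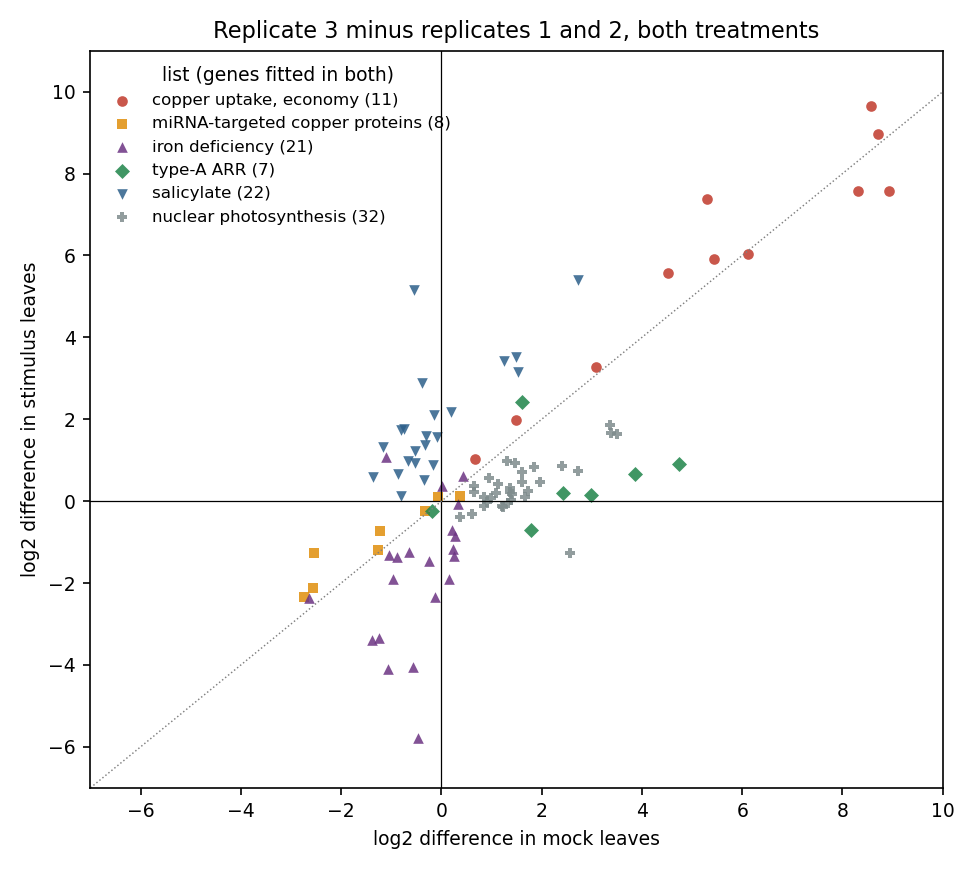
Log2 difference between replicate 3 and replicates 1 and 2 in mock leaves (horizontal) and in stimulus leaves (vertical), for genes of 6 lists fitted in both, with the line of equal difference dotted. All 11 copper uptake genes lie above 0 in both, from the lower end at COPT1 to FSD1, with ZIP2 at 5.30 and 7.39 among those off the line, salicylate genes lie above 0 in the stimulus and on both sides of 0 in the mock, and ARR4, ARR6, ARR7 and ARR9 of the type-A regulators lie to the right of the line.

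Some of the widest gaps lay outside these lists. CAT2, the main leaf catalase, was at 305, 231, 306 and 286 CPM in replicate 3 and 13.5 to 34.9, median 26.8, in the others, and differed by 3.53 ± 0.17 in the mock and 2.67 ± 0.19 in the stimulus (edgeR adjusted p = 1.25e-08). AT2G16660, annotated as a major facilitator superfamily protein, was at 245, 279, 301 and 273 CPM against 18.7 to 31.7. MYB48, a MYB transcription factor, AT3G22750, a protein kinase, and AT1G19230, a Riboflavin synthase-like protein, were higher by 4.14 ± 0.30, 4.42 ± 0.27 and 3.63 ± 0.19 on the log2 scale. On the lower side, EXT3, an extensin of the cell wall, was at 3.88, 3.23, 2.60 and 3.49 CPM against 24.1 to 56.1, median 43.2, but in the stimulus its difference was -0.13 ± 0.14 (edgeR adjusted p = 0.428). AT1G54020, a GDSL-like lipase, had 12 counts in replicate 3 and 4422 in the others, and differed by -6.65 ± 0.90 in the stimulus (edgeR adjusted p = 1.1e-05). AT5G66650, annotated as a calcium uniporter, AT2G03865, an uncharacterised RNA, and PGL5, a 6-phosphogluconolactonase, were lower, at -4.04 ± 0.21, -4.07 ± 0.27 and -3.72 ± 0.55. The 18S rRNA loci AT3G41768 and AT2G01010 were lower, at -3.59 ± 0.24 and -3.58 ± 0.25, and being near-identical copies they may share reads.

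At the 2-fold limit itself, AT2G15690, just past it, was at 42.1, 46.0, 38.1 and 33.8 CPM against 16.2 to 27.1, and AT4G19410, just short of it, at 72.9, 75.5, 86.2 and 91.0 CPM against 36.4 to 44.3. Both sets of values were clear of each other, so the limit and not the spread decided between them.

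Markers of other organs were at or near 0 in these leaf libraries. Of 5 root, 5 shoot meristem and 3 flower markers none passed the filter on low counts in either set, and their summed levels reached at most 0.361, 0.0722 and 0.361 CPM in replicate 3 and 0.354, 1.55 and 0.244 CPM in the others. Summed CPM of the 5 mesophyll markers ran from 20019 to 21418 in replicate 3 and from 8459 to 13760 in the others. By the rule 3 (CAB1, LHCB2.1 and RBCS3B) were higher, against 5.44% of all genes, and these belong to the photosynthesis list as well. Vascular markers summed to 142.9 to 149.7 CPM and 78.8 to 118.7 CPM. Of these 6 markers 1 was higher by the rule, the xylem protease XCP1 (1.29 ± 0.15), against 5.44% of all genes. Epidermal and stomatal markers summed to 134.6 to 172.4 and 163.1 to 194.9 CPM. Of these 10 markers 5 had a positive and 5 a negative difference, with a median log2 difference of 0.04. Only PDF1, of the epidermis, met the rule, lower at 7.83, 12.4, 9.18 and 14.7 CPM against 25.4 to 40.4, where 5.67% of all genes were lower. The part of leaf make-up in the differences was not tested. None of 9 cell cycle genes was higher or lower by the rule, which 5.44% and 5.67% of all genes met. Of the 9, 8 had a negative difference, with a median of -0.64, where 10352 of all 20370 genes had a negative difference. In the stimulus 8 were lower and 0 higher, against 35.7% and 34.2% of all genes.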

How the data were processed

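Whole-number read counts per locus were deposited by the authors as 1 table of 30 columns. Per the submitters' processing notes, the tool was BWA and the build TAIR10. How reads were assigned to loci is not given in the sources used here. Per the labels' protocols, total RNA was depleted of rRNA with Ribo-Zero and made into stranded libraries, which leaves non-polyadenylated RNA in the counts. Of 38194 loci, 37751 were paired with a RefSeq entry (TAIR10.1) for symbols, products and sequences, and no coordinates are printed because the builds differ in name.

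The mock columns of replicate 3 at 6 h and 7 h hold identical counts and were entered once, with 6 h and 7 h as 1 level of time, since which time they belong to is not known. Counts were fitted with edgeR 4.0.16 (R 4.3.3, limma 3.58.1) by quasi-likelihood after filterByExpr and TMM scaling, with time as a block, and adjusted over all genes tested by Benjamini-Hochberg at 0.05. CPM use TMM-scaled library sizes, fitted separately for mock and stimulus, so the CPM of a library need not add up to the nominal total. The SE is the log2 difference divided by the square root of the F statistic. DESeq2 1.42.0, other filters and scalings, and the removal of each library were tried as alternatives. The labels call the replicates biological without naming plants, and the p-values cover only the variation among the libraries analysed.

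The members and gene lists were chosen with earlier results of these data known. All members of the copper, iron, cytokinin, defence, jasmonate and plastid lists could be named, up to 4 each way of other lists by size, the 10 largest differences each way among genes above 1 log2 CPM, and the 3 genes nearest the 2-fold limit on each side. On simulated data with 100 genes changed at each size, the stimulus test recovered 95% of changes of log2 1 and 100% of log2 2 (20209 genes), the mock rule 53% and 99% (20126 genes), and the test between replicates 1 and 2 93% and 100% (20286 genes). Changes of log2 1 lie on the limit of the mock rule itself, so its 53% does not measure power. Changes were planted only in genes of at least 1 CPM, and each library was drawn independently, unlike libraries that may share plants.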

Additional observations from a re-analysis of the deposited data

Results flagged for a closer look

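Of 110 sets of library values examined, for 52 genes and 3 composition shares, 10 had a library whose gap to its nearest neighbour was large for the range of its set. For normally distributed values chance gives about 1 in 20, or 5.5. That share does not hold for sets mostly at 0, where a few counts can set a library apart. Such were those of MIR398c, MIR408, ZIP2, AT1G71200 and NAS3 in replicates 1 and 2, each with a median of 0. In replicate 3 the 8 h library was set apart for ARR4 at 48.8 CPM (median of the set 16.8), for ARR6 at 6.40 CPM (median 1.09) and, on the low side, for MIR408 at 4.23 CPM (median 7.31). The column shared by 6 h and 7 h was set apart for ARR8 (RR3), low at 5006 CPM (median 5756).

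In replicates 1 and 2 the library set apart was that of replicate 1 at 8 h for FSD1 (1.32 CPM), ZIP2 (0.244 CPM) and NAS3 (0.0976 CPM), at 6 h for AT1G71200 (0.157 CPM) and MIR408 (0.105 CPM), and at 7 h for MIR398c (0.0934 CPM). These values rest on a handful of counts for every gene but FSD1. All of them lay below the lowest replicate 3 library of the same gene.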

How the results depend on the processing

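No paired analysis was possible because the replicate number is itself the contrast, so it cannot also serve as a block. With a 1.5-fold limit 2632 genes were higher and 2363 lower in mock replicate 3, and with a 4-fold limit 166 and 272. Leaving out each library in turn gave 1040 to 1353 higher and 1170 to 1320 lower in the mock, and 6628 to 7005 higher and 6880 to 7321 lower in the stimulus. Between mock replicates 1 and 2, DESeq2 made 7 calls on the higher side, and leaving out each library gave 0 to 99 higher and 0 lower; the 99 came without replicate 1 at 7 h and 98 without replicate 2 at 7 h, and the cause was not tested. The other alternatives (DESeq2, its size factors, filters, no organelle or rRNA loci, no time block, the identical column left out or placed at 6 h or 7 h, replicate 1 or 2 alone, counts summed over times) kept the mock and stimulus counts within 1.5 times. Of the values of 52 named genes, none reversed. In the mock 82 values of 10 genes moved by more than the spread, among them MIR398b, ARR6 and NCED3. In the stimulus 12 values of 3 genes (ARR7, ARR8 and CYP79B2) gained a call, and 3 of 2 genes (ARR9 and RBCS1A) lost it. Precursor loci with 2 or 3 counts in replicates 1 and 2 are limited by depth.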
